A study of Mus musculus with 5 samples.

Results

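The loci described here are the 124 transcripts of Gencode gene type miRNA that reached at least 1 CPM (counts scaled to the TMM-adjusted library size) in at least 1 ribosome profiling library of mouse embryonic stem cells, out of 2207 transcripts of that gene type and 135276 transcripts in the table. The loci were selected on the CPM values of the same 5 libraries, so which loci are listed is a description. Standard RIBO-seq (3 libraries) pelleted ribosomes through sucrose, and AHARIBO RIBO-seq (2 libraries) pulled down ribosomes through nascent peptides that carry the methionine analog L-azidohomoalanine. All cells were embryonic stem cells labelled untreated, grown with LIF on gelatin, given cycloheximide before harvest and digested with RNase I in a buffer with sBlock. Neither strain nor cell line was named in the labels used here, and the replicates were labelled biological. Fragments of 25 to 35 nt were cut from the gel in both methods.

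miRNA genes are transcribed as long primary RNAs, from which Drosha and Dgcr8 release a hairpin in the nucleus and Dicer1 then cuts a short mature RNA in the cytoplasm. The mature RNA guides an Argonaute protein to messenger RNAs, mainly through the seed, its bases 2 to 8. Embryonic stem cells are known for the miR-290 and miR-17-92 clusters. The gene type miRNA also holds many predicted loci with no known mature product, and 90 of the 124 loci carried a Gm name while 31 carried a Mir name.

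Mature sequences in RefSeq (GRCm38.p6) had a length of 19 to 26 nt with a median of 22 nt, under the lower limit of the fragments sequenced for most, and RefSeq held one for 29 of the 124 loci. The sequences below are those of the loci that differed between methods or belong to the stem cell clusters, with the seed in capitals. miR-20a-5p and miR-93-5p share the seed AAAGUGC.
miR-20a-5p: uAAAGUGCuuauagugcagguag
miR-93-5p: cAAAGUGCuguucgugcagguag
miR-292a-5p: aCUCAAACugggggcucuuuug
miR-1291: aUGGCUCUuacugaagacuagcaguu
miR-677-5p: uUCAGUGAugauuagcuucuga
miR-6516-5p: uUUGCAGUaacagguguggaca
miR-1983: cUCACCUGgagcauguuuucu
miR-6236: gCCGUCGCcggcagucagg

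The loci themselves are longer, 56 to 147 nt with a median of 96 nt, and many repeat the sequence of another RNA. Gm47287 lies inside Rn7s1, a gene of 7SL RNA, the RNA of the signal recognition particle, and Gm47295 overlaps it over 77 of its 79 nt. Mir1291 (chr15:98519762-98519878, GRCm38, minus strand) lies over the H/ACA snoRNA Snora34. Capitals mark stretches of 25 nt or more that are also in Snora34.
Mir1291 locus: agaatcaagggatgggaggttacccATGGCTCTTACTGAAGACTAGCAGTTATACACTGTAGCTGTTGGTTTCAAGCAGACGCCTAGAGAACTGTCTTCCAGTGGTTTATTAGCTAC

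Gm47313 (chr3:96245826-96245963, minus strand) is shown because all of its 138 nt lie opposite the coding exon of the histone gene Hist2h2aa1, which the capitals mark. Gm23935 (chr16:11144125-11144181, plus strand) had the highest mean level of the loci, and its copies Gm24187 (chr13:9834469-9834525, minus strand) and Gm23388 (chr8:85112012-85112068, minus strand) are shown with the bases that differ from it in capitals.
Gm47313: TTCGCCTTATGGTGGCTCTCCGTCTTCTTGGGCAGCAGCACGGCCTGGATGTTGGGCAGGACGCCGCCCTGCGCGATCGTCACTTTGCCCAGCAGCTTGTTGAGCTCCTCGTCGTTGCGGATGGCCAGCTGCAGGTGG
Gm23935: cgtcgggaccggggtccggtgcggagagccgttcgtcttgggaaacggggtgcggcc
Gm24187: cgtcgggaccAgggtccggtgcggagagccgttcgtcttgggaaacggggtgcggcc
Gm23388: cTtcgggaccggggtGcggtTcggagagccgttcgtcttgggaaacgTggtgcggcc

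Library totals after duplicate removal ran from 6403651 to 11150527 counts. The summed level of 10 stem cell markers was 1349 to 1606 CPM, against 5.63 to 6.50 CPM for 6 fibroblast markers and 14.8 to 20.5 CPM for 7 markers of differentiating cells. Reads on the 124 loci made up 0.0717% to 0.0983% of the counts of a library. No read was counted on 1695 of the 2207 loci, and 512 held at least 1 read in some library. At the limit of 1 CPM, Gm23634, Mir93 and Mir7011 stood just inside, with highest levels of 1.05, 1.05 and 1.11 CPM, and Mir7672, Gm27486 and Gm22582 just outside, with 0.999, 0.999 and 0.993 CPM. In all, 100 loci reached 1 CPM in both methods, 16 in AHARIBO alone and 8 in standard RIBO-seq alone.

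Most of the 124 loci shared sequence with other transcripts. In 94 of them at least 50% of the 25-nt windows also occurred on the same strand of another annotated transcript outside the gene type miRNA, and in 65 all windows did. Identical counts in all 5 libraries were found for 20 loci, so the 124 loci gave 112 distinct count patterns. How reads that fit several transcripts were counted is not given in the sources used here, so copies are not independent of each other. By the annotation order fixed for location, 69 loci lay in no exon or intron of the classes used, 19 in coding exons, 9 in untranslated exons, 9 over a snoRNA or scaRNA, 8 in introns of coding genes, 4 in introns of lncRNAs, 3 in lncRNA exons and 3 in non-coding transcripts of coding genes. The count in coding exons rests on an overlap of at least 10 nt and fell to 5 where the whole locus had to lie inside the exon, while the count over snoRNAs fell to 0. A finer grouping, made after the values were seen, added 7SL RNA genes (8 loci), tRNA genes in RefSeq (4), pseudogenes (33) and the opposite strand of a coding exon or pseudogene (19).

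Between the methods, 18 of the 124 loci were higher in AHARIBO and 1 was lower (edgeR quasi-likelihood test, adjusted p under 0.05 over 66972 transcripts). Of all transcripts 4.51% were called, 2.27% as higher and 2.24% as lower, against 14.5% of the loci as higher and 0.806% as lower. DESeq2 called 2 of the 13 loci to which it gave an adjusted p, both higher, where 1.78% of the 15035 transcripts with an adjusted p were called, 0.858% as higher and 0.918% as lower. The median log2 fold change was -0.06 over the loci and 0.00222 over all transcripts. Of the 19 loci called, 6 had reached 1 CPM in 1 method alone, where the limit itself favours a difference. The 18 higher loci formed 13 families of shared sequence, and 14 of them lay over 7SL RNA genes or over snoRNAs. Without AHARIBO replicate 2, 10 loci were higher and 11 lower; without standard replicate 2, 8 were lower, and none was lower without standard replicate 1 or AHARIBO replicate 1. The share of all transcripts called in these fits is not given here, so their counts have no background beside them. All 8 loci over 7SL RNA, Mir6516, Mir1291, Mir1983, Mir677 and Gm49349 were called whichever standard library was left out. Without either AHARIBO library in turn, the log2 fold changes of these loci stayed positive.

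**Figure D1:**
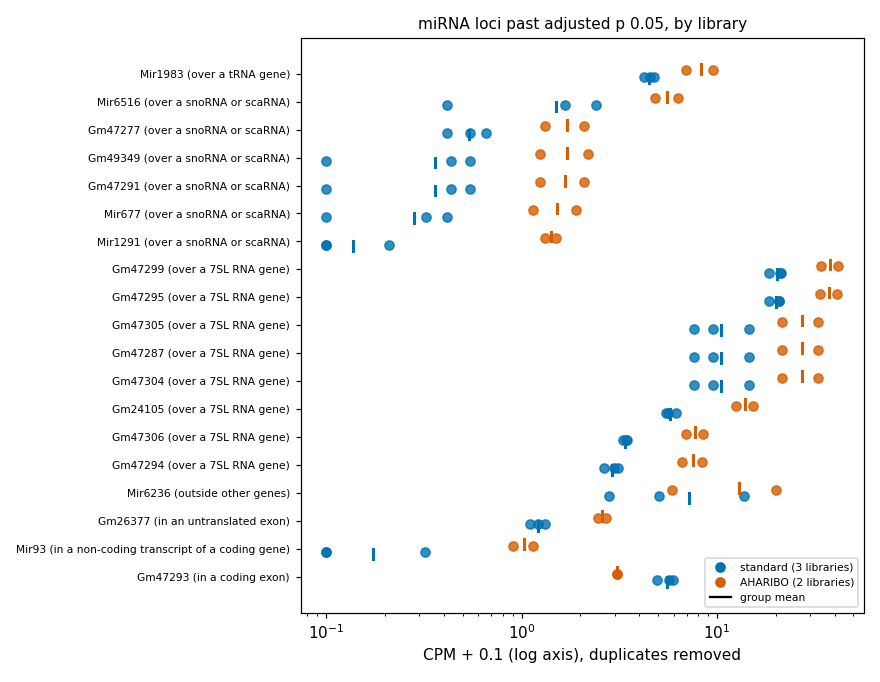
CPM plus 0.1 (log axis, duplicates removed) of the 19 loci past adjusted p 0.05, with 1 point per library (3 standard, 2 AHARIBO) and a bar at each group mean. Both AHARIBO libraries lie above all 3 standard libraries for 17 loci and below them for Gm47293, and they overlap for Mir6236.

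7SL RNA is the non-coding scaffold of the signal recognition particle, which binds ribosomes as a signal peptide emerges and brings them to the endoplasmic reticulum. All 8 loci over 7SL RNA genes rose in AHARIBO, with log2 fold changes from 0.90 to 1.42. Gm47295 had 164, 188 and 131 counts in the standard libraries and 384 and 411 in the AHARIBO libraries. Its mean level was 20.0 ± 1.38 CPM (SD, n = 3) in standard and 37.3 ± 5.26 CPM (n = 2) in AHARIBO, a log2 fold change of 0.90 (SE 0.10, edgeR adjusted p = 4.49e-09). Gm47299, in a second 7SL RNA gene, Rn7s2, had nearly the same counts.

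A second stretch of 7SL RNA is covered by 3 further loci. Gm47287, Gm47304 and Gm47305, in Rn7s1, Rn7s6 and Rn7s2, had the same counts: 84, 68 and 91 in standard, 246 and 329 in AHARIBO. The groups did not overlap, and the log2 fold change was 1.42 (SE 0.15, edgeR adjusted p = 7.2e-10). Gm24105, Gm47306 and Gm47294, in diverged copies, rose by 1.28, 1.20 and 1.37 on the log2 scale. The whole Rn7s1 transcript rose by 0.89 on the log2 scale (SE 0.09, edgeR adjusted p = 1.57e-09). Its counts can include the reads counted on the loci within it, so the shared direction is not a separate result. These 8 loci share sequence, and DESeq2 called 2 of the 5 to which it gave an adjusted p.

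Over snoRNAs and scaRNAs, guide RNAs that direct modification of ribosomal and spliceosomal RNA, 6 of 9 loci rose and 3 did not pass the test. Both AHARIBO libraries were above all 3 standard libraries for all 9, against 17.3% of all transcripts, but 7 of the 9 had reached 1 CPM in 1 method alone. Mir6516, over the scaRNA Gm26083 in the lncRNA Snhg20, was the most abundant, with 14, 21 and 2 counts in standard and 54 and 62 in AHARIBO. Its log2 fold change was 1.82 (SE 0.28, edgeR adjusted p = 1.01e-05). Snhg20, whose exons hold the whole locus, rose by 1.45 on the log2 scale (edgeR adjusted p = 4.21e-08). Its counts can include the reads counted on Mir6516.

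Mir1291 had the largest fold change of the 124 loci on few reads. It had 0, 1 and 0 counts in standard and 14 in each AHARIBO library, and reached 1 CPM in AHARIBO alone, where the limit itself favours a difference. The pooled counts, scaled to depth, differed 32.5-fold with an exact 95% counting interval of 5.37 to 1328, and the edgeR adjusted p was 0.00133. The interval covers counting error alone. Snora34, which overlaps the locus, had 0, 1 and 0 counts in standard and 15 and 12 in AHARIBO, and 92 of the 117 nt of the locus are also in it.

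Mir677, which Gencode also annotates as a snoRNA, had 2, 0 and 2 counts in standard and 12 and 18 in AHARIBO (edgeR adjusted p = 0.00704). Gm47277, over the snoRNA Gm24698, had 5, 4 and 2 counts against 14 and 20 (edgeR adjusted p = 0.0307). Gm49349 and Gm47291, which share sequence, had 3, 4 and 0 counts in standard, against 13 and 21 for Gm49349 and 13 and 20 for Gm47291 in AHARIBO. All 4 loci reached 1 CPM in AHARIBO alone, where the limit itself favours a difference. Without AHARIBO replicate 2 none of the 4 was called by edgeR, with adjusted p from 0.112 for Mir677 to 0.275 for Gm47277; Gm47277 lost its call whichever of the 5 libraries was left out and with the replicate block (0.0591), and Gm47291 was not called without standard replicate 1 (0.0513) or 3 (0.0505). The 3 loci that did not pass were Mir3068 (log2 difference 0.64, adjusted p = 0.463), mmu-mir-3535 (1.94, adjusted p = 0.126) and Gm49347 (1.37, adjusted p = 0.219), all by edgeR.

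**Figure D2:**
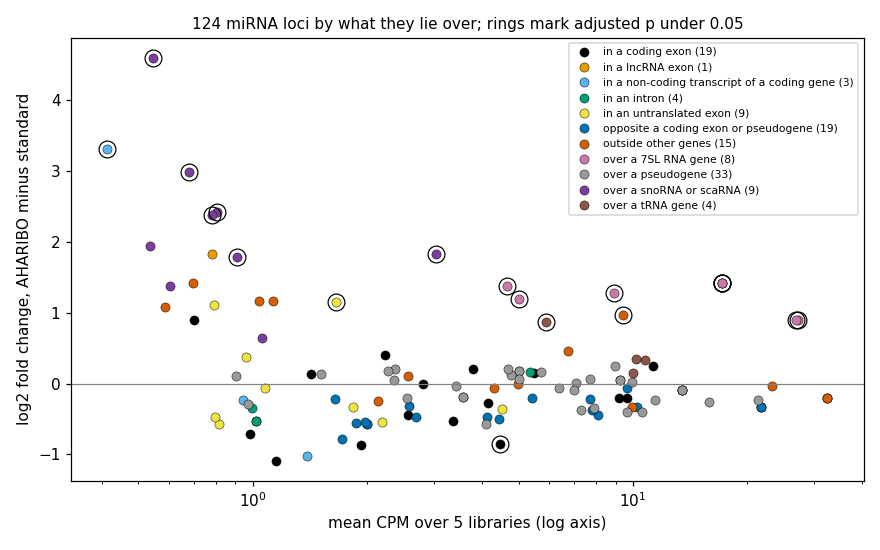
Log2 fold change (AHARIBO minus standard) against the mean CPM over 5 libraries (log axis) for the 124 loci, coloured by what each lies over, with rings on those past adjusted p 0.05. The loci over 7SL RNA lie between 0.90 and 1.42, those over snoRNAs and scaRNAs between 0.64 and 4.59, and the 19 opposite a coding exon or pseudogene lie below 0.

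Outside those groups, 5 loci were called. Mir93, of the miR-106b-25 cluster in Mcm7, had 0, 2 and 0 counts in standard and 12 and 8 in AHARIBO. The pooled ratio was 11.6 with an exact 95% counting interval of 2.82 to 102 (edgeR adjusted p = 0.0276). The interval covers counting error alone. Mir93 reached 1 CPM in AHARIBO alone, where the limit itself favours a difference. It was not called without standard replicate 1 (adjusted p = 0.156), standard replicate 3 (0.0741) or AHARIBO replicate 2 (0.0514), and without AHARIBO replicate 1 it fell below 1 CPM and was not tested. The Mcm7 mRNA, which encodes a replicative helicase subunit, did not pass the test (log2 difference -0.11, edgeR adjusted p = 0.476).

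Mir1983, over a tRNA gene, had 37, 42 and 28 counts in standard and 78 and 95 in AHARIBO, a log2 fold change of 0.87 (SE 0.18, edgeR adjusted p = 0.00175). Gm26377, in an untranslated exon of the elongation factor gene Eef1a1, had 9, 11 and 7 counts against 27 and 26 (log2 fold change 1.14, SE 0.34, edgeR adjusted p = 0.0357). Its reads per nt were 0.0385 of those of the whole Eef1a1 transcript. Gm47293 was the locus that fell: in a coding exon of Ahsa1, a co-chaperone of Hsp90, it had 50, 44 and 37 counts in standard and 34 and 30 in AHARIBO, and decreased by 0.85 on the log2 scale (SE 0.21, edgeR adjusted p = 0.00968). A retained-intron transcript of Ahsa1 that holds the whole locus had a log2 fold change of -0.33 (SE 0.10, edgeR adjusted p = 0.0372). Its counts can include the reads of the locus. Mir1983 was not called without AHARIBO replicate 2 (adjusted p = 0.0662), Gm47293 without standard replicate 1 (0.0574) or AHARIBO replicate 1 (0.136), and Gm26377 lost its call whichever of the 5 libraries was left out (0.0577 to 0.22) and with the replicate number as a block (0.0672).

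Mir6236 had 24, 45 and 86 counts in standard and 66 and 201 in AHARIBO, so the groups overlapped. Its log2 fold change was 0.96 (SE 0.29, edgeR adjusted p = 0.0396). Without AHARIBO replicate 2 it was -0.15 (adjusted p = 0.804), and without standard replicate 1 or 2 it was 0.54 (0.33) or 0.78 (0.0723). The call was also lost with RLE factors (edgeR adjusted p = 0.0504), TMM after the filter (0.0502), a mean of at least 1 CPM (0.0753), 1 CPM in 2 libraries (0.0716) and duplicates kept (0.287).

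Of the stem cell clusters fixed for the report, the miR-290 loci held most reads, 125 counts over 9 loci and 5 libraries. Their summed level was 2.02, 2.21 and 0.476 CPM in standard and 3.32 and 4.59 CPM in AHARIBO. The 6 miR-17-92 loci summed to 1.12, 0.662 and 1.11 CPM in standard and 2.54 and 2.60 CPM in AHARIBO. In both clusters the AHARIBO libraries were above the standard libraries, with no test of the sum. The 5 miR-302 loci had 0 counts in every library, and let-7, known to rise on differentiation, had 33 counts over 11 loci.

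Within these clusters, 3 loci reached 1 CPM, all in AHARIBO alone, where the limit itself favours a difference, and Mir93 alone was called. Mir20a, in an exon of Mir17hg, had 6, 0 and 3 counts in standard and 12 and 17 in AHARIBO (log2 difference 1.83, SE 0.60, edgeR adjusted p = 0.0675). Mir292 had 2, 6 and 2 counts against 9 and 15 (log2 difference 1.42, edgeR adjusted p = 0.175). Mir17hg, the primary RNA of miR-17-92, had 22, 13 and 12 counts against 52 and 36 and rose by 1.08 on the log2 scale (SE 0.26, edgeR adjusted p = 0.00779). The miR-17-92 loci lie in exons of Mir17hg, so its counts can include their reads and its rise is not a separate result. Rian, a lncRNA that hosts small RNAs, rose by 0.86 on the log2 scale (edgeR adjusted p = 0.00647). The other host RNAs did not pass: Meg3 had a log2 difference of 0.20 (adjusted p = 0.577), Mirg 0.61 (0.571) and Sfmbt2 0.08 (0.777).

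**Figure D3:**
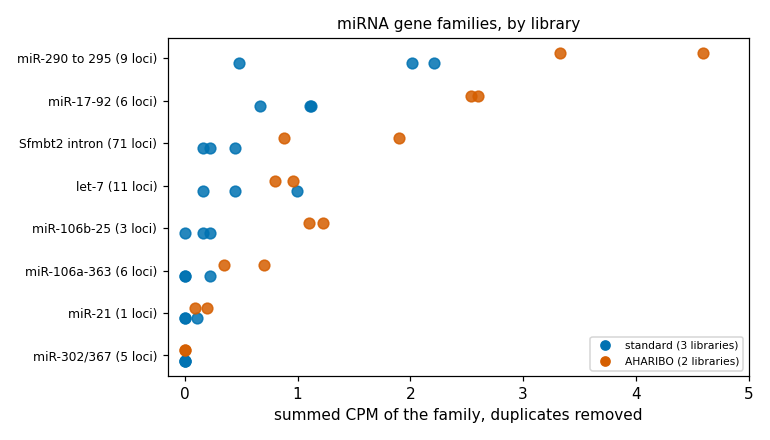
Summed CPM (duplicates removed) of each miRNA family, 1 point per library for 3 standard and 2 AHARIBO libraries. The miR-290 sum reaches 4.59 CPM in AHARIBO, and the miR-302 loci are at 0 in all 5 libraries.

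The 19 loci in coding exons lie where ribosome footprints of the mRNA are also counted. Gm27597, in the ribosomal protein gene Rpl19, had 114, 128 and 91 counts in standard and 131 and 146 in AHARIBO (log2 difference -0.08, edgeR adjusted p = 0.785). Gm23419, in the actin gene Actg1, had 91, 106 and 60 counts against 132 and 136 (log2 difference 0.24, edgeR adjusted p = 0.324). With duplicates kept, Gm23419 was called higher (log2 fold change 0.70, edgeR adjusted p = 0.0247). Of the 19, Gm47293 alone passed the test, and 4 had an unadjusted p under 0.05. DESeq2 gave none of them an adjusted p.

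Relative to the mRNA, the density of reads on same-strand loci varied widely. Over 32 loci that overlap a coding exon of an mRNA with at least 0.2 reads per nt, the locus had a median of 0.431 of the reads per nt of the mRNA, from 0 to 4.23. The median was 1.15 for the 17 that belong to the 124 loci and 0.0179 for the 15 under 1 CPM, a split made on the reads themselves. Gm47315 in Kansl1 stood at 4.23 and Mir7654 in Arglu1 at 3.76, while Mir686 in the proteasome gene Psmb5 stood at 0.275. In 7 loci no read was counted. The exact two-sided permutation test of a change in this ratio between methods cannot give a p below 0.1 with 2 against 3 libraries.

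Loci opposite coding exons held reads too. The methods state that reads were mapped to transcripts and that antisense reads were removed. Reads counted on these loci can be sense to the locus itself, so they do not by themselves conflict with that step. Of 22 such loci, 15 reached 1 CPM, and 12 of these 15 lie opposite H2A histone genes, whose proteins form part of the nucleosome. Their density was between 0.0920 and 6.86 of that of the mRNA, and the other 7 loci, all opposite H2A genes, held 5 counts or fewer each. Gm47313, shown above, had 223, 165 and 177 counts in standard and 188 and 211 in AHARIBO, at 0.643 of the reads per nt of Hist2h2aa1. Gm47313 and Gm47311 also lie wholly in same-strand exons of the annotated antisense RNAs Gm20633 and Gm20632, so their reads are sense to those transcripts. Gm20633 and Gm20632 both decreased by 0.40 on the log2 scale (edgeR adjusted p = 0.00495 and 0.00509). Gm44335, opposite H2afx, had 96, 91 and 80 counts against 91 and 97, at 0.719 of the density. Gm24157, opposite the phosphatase gene Ppp2ca, had 90, 86 and 62 counts against 108 and 94, at 6.86 times the density of the mRNA.

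None of the 19 loci opposite a coding exon or pseudogene passed the edgeR test, 9 had an unadjusted p under 0.05 and DESeq2 called none of the 3 it gave an adjusted p. With duplicates kept, edgeR called 1 of the 19, Gm44335, as lower (log2 fold change -0.45, adjusted p = 0.0290), where 1.51% of all transcripts were called lower. All 19 had log2 differences below 0, from -0.78 to -0.06, and copies of H2A sequence share reads. How strand was handled for these loci was not tested.

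**Figure D4:**
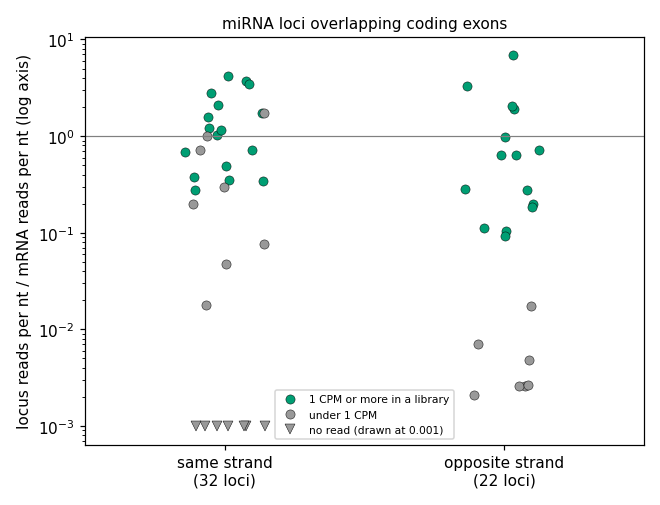
Reads per nt of a locus over reads per nt of the mRNA (log axis) for miRNA loci that overlap a coding exon on the same strand (32) or the opposite strand (22), with loci of at least 1 CPM in green and loci with no read drawn at 0.001. Opposite-strand loci reach 6.86 and same-strand loci 4.23.

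Pseudogenes, mostly processed copies of abundant mRNAs, lay under 33 loci. Gm27907, Gm27288 and Gm27529, in Rpl19 pseudogenes, had the same 114, 128, 91, 131 and 146 counts as Gm27597 in Rpl19 itself. Mir682, over the pseudogene Gm4149, had 190, 205 and 152 counts in standard and 200 and 213 in AHARIBO (log2 difference -0.23, edgeR adjusted p = 0.239). Mir692-2, over the ferritin pseudogene Ftl2-ps, had the same counts as Mir692-3 in Ftl1-ps1, at 96, 76 and 51 against 113 and 90. None of the 33 passed the edgeR test, 7 had an unadjusted p under 0.05 and DESeq2 called none of the 1 it gave an adjusted p. With duplicates kept, edgeR called 7 of the 33 higher and 1 lower, where 1.92% of all transcripts were called higher and 1.51% lower, among them Gm25241 (log2 fold change 0.84, adjusted p = 0.00814) and Gm24865 (-0.75, adjusted p = 0.0134).

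The highest levels belonged to a family of 57-nt loci, shown above. Gm23935 and Gm24245 both had 299, 222 and 287 counts in standard and 259 and 363 in AHARIBO, and Gm24270 differed from them by at most 1 count a library. The mean of Gm23935 was 34.5 ± 10.6 CPM (SD, n = 3) in standard and 29.5 ± 9.61 CPM (n = 2) in AHARIBO, and the log2 difference of -0.21 did not pass the test (edgeR adjusted p = 0.428). Gm24187, which differs at 1 base, had 195, 140 and 214 counts against 186 and 288. The spread within each method was larger than the difference between them.

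The weight of duplicate removal differed between groups of loci. It took 43.3% to 47.7% of the counts of a library over all transcripts but 88.7% to 95.1% of the summed counts on the 124 loci. Loci in coding exons lost 43.8% to 56.9% and loci over snoRNAs or scaRNAs 34.3% to 61.4%. For the 4 loci over tRNA genes it took 99.0% to 99.6%: n-TStga1, over a serine tRNA gene, had 8088 to 27786 counts with duplicates kept and 68 to 148 without. For the loci over 7SL RNA it took 76.2% to 87.2% in standard and 96.8% to 97.0% in AHARIBO. Short loci have few positions for distinct reads, and whether duplicates were identical molecules or amplified copies was not tested.

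With duplicates kept, all 8 loci over 7SL RNA were called higher again. Gm47295 had 1044, 2126 and 785 counts in standard and 26866 and 27576 in AHARIBO, a log2 fold change of 3.99 in place of 0.90, and Gm47287 had 2.71 in place of 1.42, so the order of these loci changed. In the same setting 27 of the 116 loci tested were higher and 2 lower, where 3.43% of all transcripts were called, 1.92% as higher and 1.51% as lower, and 16 of the 18 called higher were called again. The 3 loci not called again were Gm47293, Gm26377 and Mir6236. Mir20a passed there, with a log2 fold change of 3.25 (edgeR adjusted p = 0.00865).

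**Figure D5:**
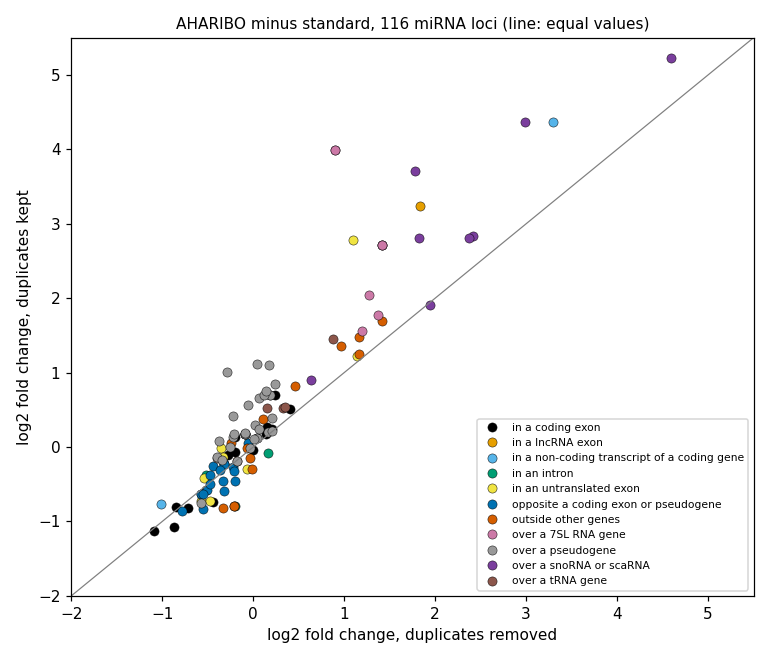
Log2 fold change (AHARIBO minus standard) with duplicates kept against the same with duplicates removed, for 116 loci coloured by what they lie over, with a line of equal values. Gm47295 and Gm47299 over 7SL RNA stand at 3.99 with duplicates kept and 0.90 with duplicates removed.

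Of the miRNA pathway, 23 of 24 genes were tested through their most abundant transcript, and 5 were higher and 1 lower in AHARIBO, against 2.27% and 2.24% of all transcripts. Dicer1, which cuts the hairpin, rose by 0.37 on the log2 scale (25.7 ± 1.01 CPM in standard, 33.2 ± 2.77 CPM in AHARIBO, edgeR adjusted p = 0.0126). Ago2 (0.27), the GW182 protein gene Tnrc6b (0.46), the uridyl transferase gene Tut4 (0.34) and Trim71, a let-7 target (0.30), were the other genes that rose, with log2 fold changes in parentheses. Khsrp, an RNA-binding protein gene, decreased by 0.25 on the log2 scale. Drosha (-0.02, edgeR adjusted p = 0.94) and Dgcr8 (0.21, edgeR adjusted p = 0.284) did not pass. With all transcripts of a gene summed, none of the 6 passed the edgeR test, in a fit that called 88 of 20121 genes, and 10 pathway genes had an unadjusted p under 0.05. DESeq2 on the transcripts called none, with 7 at an unadjusted p under 0.05.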

How the data were processed

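The deposited table gives counts per transcript for 3 standard and 2 AHARIBO libraries, with duplicate reads kept and removed. The authors trimmed reads (Trimmomatic 0.36), removed rRNA and tRNA reads, mapped the rest with STAR to Gencode transcripts (build GRCm38.p6 per the labels) and removed antisense and duplicate reads. Handling of reads that fit several transcripts is not given in the sources used here. Counts without duplicates were scaled with TMM over all transcripts, and those with at least 1 CPM in at least 1 library were tested with edgeR 4.0.16 (R 4.3.3; quasi-likelihood, no block, Benjamini-Hochberg over all transcripts); DESeq2 1.42.0 was an alternative. Scripts were tested on simulated data. Loci were placed with Gencode M21, by at least 10 nt of same-strand overlap, and sequences were compared in 25-nt windows. Permutation p-values of locus-to-host ratios were not adjusted.

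The loci, gene lists and groups were chosen with earlier results of these data known. Named loci were those past adjusted p 0.05, the 5 most abundant per location, detected cluster members, those next to the limit and their hosts; some others were chosen after their values were seen. A count of 3 in a library corresponds to 0.262 to 0.476 CPM. Some sequences and 1 host gene are not reported here.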

Additional observations from a re-analysis of the deposited data

How the results depend on the processing

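The 18 loci higher in AHARIBO became 2 with DESeq2, which gave an adjusted p to 13 loci (19 higher at an unadjusted p under 0.05), 11 with a mean of at least 1 CPM, and 28 of 121 with duplicates kept. Leaving out 1 library gave 10 to 18, the lowest without AHARIBO replicate 2, and the 1 locus lower became 0 to 11, with 8 without standard replicate 2, 11 without AHARIBO replicate 2, and 0 without standard replicate 1 or AHARIBO replicate 1. It was 0 with DESeq2 (1 at an unadjusted p under 0.05) and 2 with duplicates kept. With the replicate block the counts were again 18 and 1. Gm47277 (edgeR adjusted p = 0.0591) and Gm26377 (0.0672) were lost, and Mir20a (0.0474) and Mir6240 (1.91e-05) were gained. The deviations of same-numbered libraries from their method mean had correlations of 0.0423 and -0.0762. With 2 AHARIBO libraries these deviations mirror each other, so the values cannot show whether same-numbered libraries were paired. Counting 1 locus per family, an alternative chosen after seeing the data, gave 13 higher and 1 lower. Without AHARIBO replicate 2, Mir6236 turned to -0.15 (1.70 without standard replicate 3, 1.73 with the replicate block); it was the only one of the 19 called loci to change sign under the alternatives run. The cause was not tested. For fits with 1 library left out, with the replicate block or with another filter, the share of all transcripts called is not given here. Their counts therefore have no background beside them.

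Requiring the whole locus inside moved coding exons from 19 to 5, introns of coding genes from 8 to 16 and snoRNAs from 9 to 0. The number of loci detected was 162 at 0.5 CPM, 97 at 2 CPM and 120 to 126 with 1 library left out. The median log2 density ratio of the 19 coding-exon loci to their host was 0.67, and 0.27 with the most abundant host or, an alternative chosen after seeing the data, with the coding host. The 5 pathway genes higher and 1 lower became 0 and 0 with summed transcripts and with DESeq2. The 1 stem cell cluster locus higher became 0 with DESeq2, with a mean of at least 1 CPM and with 1 CPM in 2 libraries, 2 with at least 1 count in any library, duplicates kept or the replicate block, and 0 to 1 with 1 library left out. Fits without 1 AHARIBO library assume that the lone library varies like the others. The size of difference detectable with 3 and 2 libraries was not tested for these loci.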
